A study of Arabidopsis thaliana with 4 samples.

Results

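Class III peroxidases, extensins and proline-rich proteins are mostly secreted proteins, many of which build and stiffen the plant cell wall. By words in their descriptions, 34 gene models were assigned to these groups among the 1518 models listed in either of 2 deposited tables. Of the 34, 7 carried a cell wall or extracellular component term in the deposited annotation, so a place in the wall is not given for most. Members were all rows whose description contains peroxidase, extensin, proline-rich or hydroxyproline-rich, leaving out ascorbate, glutathione and thioredoxin peroxidases. The table of ein3eil1 held 24 of them, the table of Col 17, and 7 were in both, a share near the 19.1% of all 1518 models that were in both. The study sequenced root RNA of 5-day-old Arabidopsis thaliana seedlings grown on MS medium, in 4 groups: ein3eil1 with 150 µM CdSO4 for 6 h, untreated ein3eil1, Col with 150 µM CdSO4 for 6 h, and untreated Col. The mutant is given in the growth notes as ein3-1eil1-1, which lacks EIN3 and EIL1, the transcription factors at the end of ethylene signalling, and Col is the wild type. The labels name root tip and primary root as the tissue, and 1 passage of the protocols also speaks of shoots.

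With 1 library in each group, differences could not be checked against replicates, and none was tested across samples. Library totals were 16773595 to 19192279 reads. Levels are RPKM, the reads of a model scaled to its length and to the total of its library, and a ratio sets the Cd library over the control library of the same genotype. The intervals beside ratios are 95% intervals that cover counting error only. Each table lists the models past the authors' thresholds, none with less than a 2-fold ratio, and a model left off a table may have had a smaller ratio or too few reads. Among shoot marker genes 3 of 6 were listed for ein3eil1, where 3.46% of all protein-coding loci were. All 3 were higher with Cd (2.27-fold to 3.17-fold), as were 59.3% of models listed for ein3eil1, and none of the 6 markers was listed for Col. Their part in the values of ein3eil1 was not tested. None of 4 root cap markers and 12 root hair regulators and markers was listed in either table, and neither were EIN3 and EIL1, so tissue and genotype could not be checked from these rows.

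Class III peroxidases are haem enzymes of the wall and the vacuole that use hydrogen peroxide to oxidise phenolic compounds. In the wall they couple lignin precursors and link tyrosines of structural proteins, and they can also produce reactive oxygen. Extensins are rod-like glycoproteins in which a serine is followed by a row of prolines, hydroxylated and then decorated with sugars, and peroxidases tie them into a network through their tyrosines. Proline-rich proteins form a looser group, several of which are made in growing root hairs.

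The descriptions cover genes of different build, as their coding sequences showed. Proline made up 35.4% to 43.8% of codons in the extensins EPR1, AT4G08400 and EXT12, and 10.3% to 34.1% in 9 of the 13 proline-rich members, against a median of 4.56% over all 27561 protein-coding loci of the reference. The 4 members described as LEA hydroxyproline-rich glycoproteins had 3.21% to 8.08% proline codons, and AT5G10130, of the pollen Ole e 1 allergen and extensin family, had 4.27%. So 4 of these 5 lie within 3.21% to 5.69%, and AT2G27080, at 8.08%, lies between the median and the lowest of the 9. The 17 members described as peroxidases had 3.09% to 5.20%. A serine codon followed by 4 or more proline codons, the extensin signature, was found 31 times in AT4G08400, 22 times in EXT12, 3 times in AT5G19800, once in PRP1 and in no other member. The commonest stretch of 30 bases that opens with this signature is shown for the 2 extensins that hold most of them, with the serine and proline codons in capitals and tyrosine codons among the bases that follow.
AT4G08400: TCTCCACCACCACCAtacgtctacagctcc
EXT12: TCTCCACCACCACCAtacgtatacaactca
The first occurred 3 times in frame in AT4G08400 and the other 2 times in EXT12. Tyrosine, the residue that peroxidases can link, made up 18.7% and 17.2% of the codons of these genes.

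**Figure D1:**
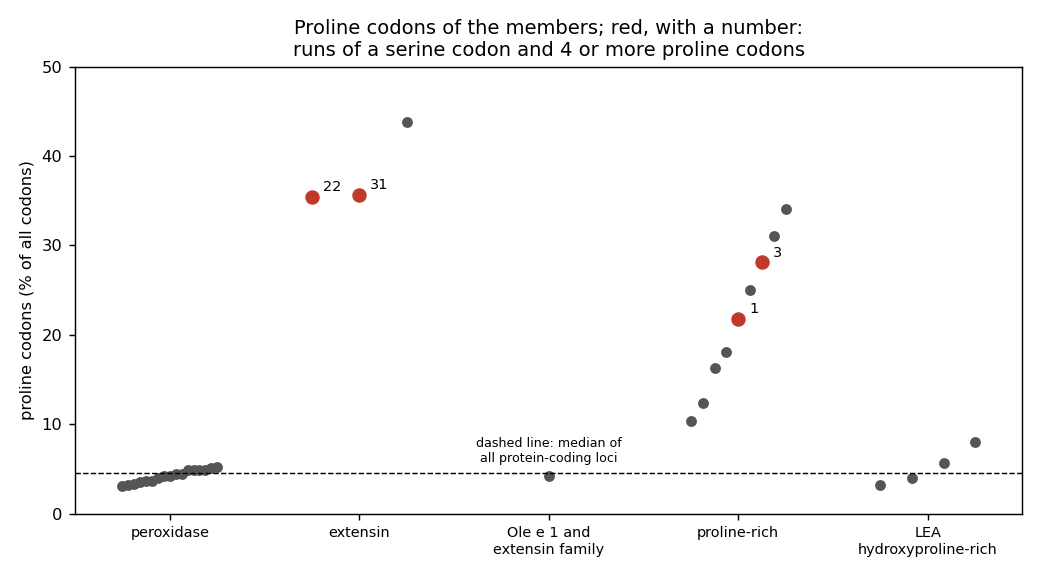
Proline codons as a percentage of all codons of each member's coding sequence in the reference, by description, 1 point per gene, with the dashed line at the median of 4.56% over all protein-coding loci. Red points carry the number of runs of a serine codon with 4 or more proline codons: 22 and 31 in 2 extensins, and 1 and 3 in 2 proline-rich genes.

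With Cd, 19 of the 24 members listed for ein3eil1 were at least 2-fold higher at 1 RPKM or more and 4 were lower, where 59.3% of all 1001 models listed for ein3eil1 were higher and 35.8% lower by the same count. The remaining member was below 1 RPKM. In Col, 7 of 17 members were higher and 9 lower, where 52.9% of all 807 listed models were higher and 42.4% lower, and 1 member was below 1 RPKM. The median log2 ratio of members with 1 RPKM or more was 1.26 in ein3eil1, against 1.14 over all models listed for ein3eil1 with that level, and -1.07 in Col, against 1.06 over all such models listed for Col. Centring the ratios on the median of each table's listed models, a shift of 1.16 in ein3eil1 and 1.06 in Col, left 3 higher and 4 lower members in ein3eil1 and 5 higher and 9 lower members in Col. No listed ratio lies between -1 and 1, so this shift does not measure a scaling error. For the same reason a median falls near -1 or near 1 by whichever direction holds more models. The gap between the Col medians thus reflects shares higher of 43.75% of the 16 members and 55.5% of all such models, and not its size in log2.

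**Figure D2:**
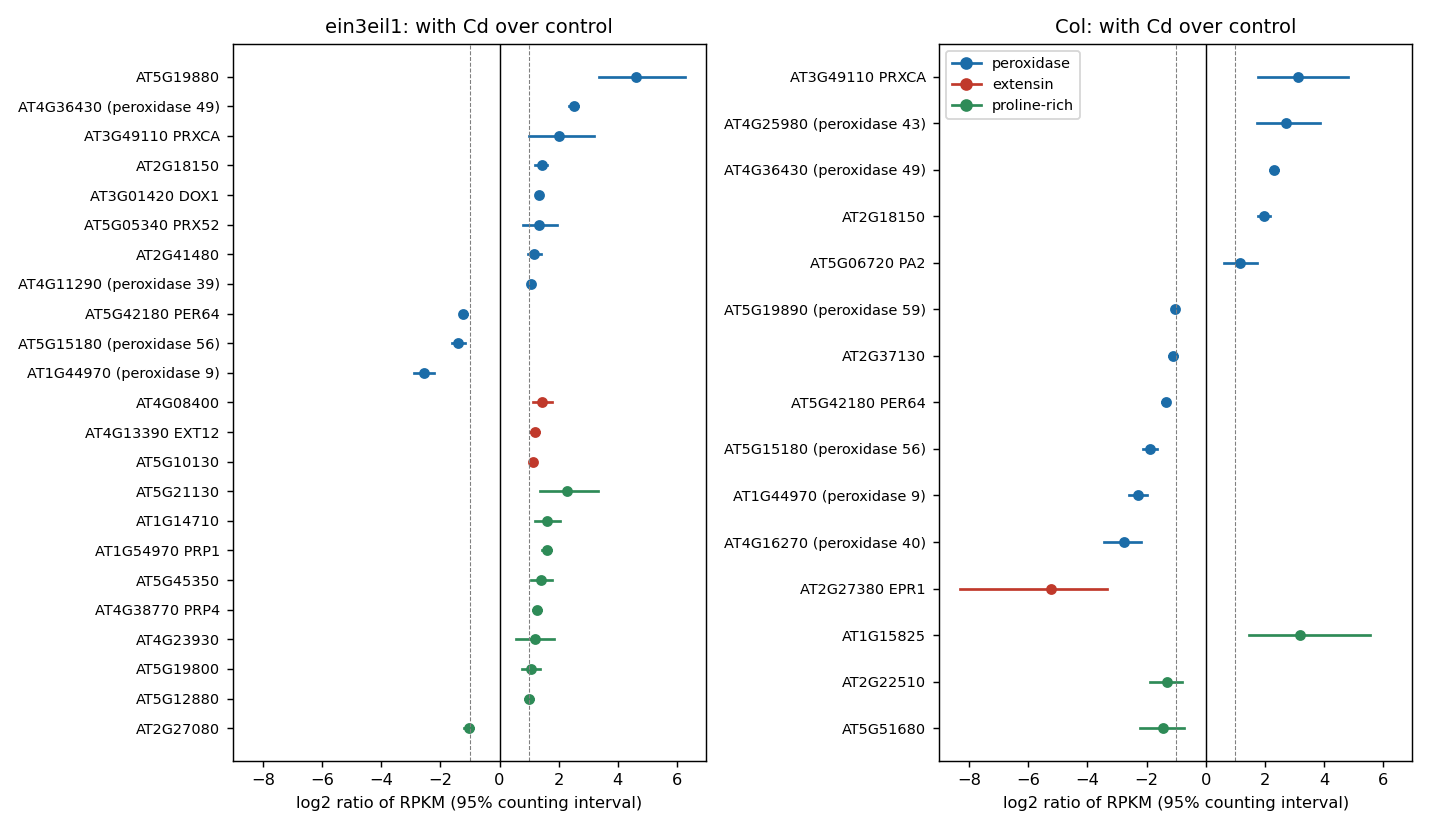
Log2 ratio of RPKM, Cd library over control library, for the members with 1 RPKM or more and reads in both libraries, ein3eil1 on the left and Col on the right, with 95% counting intervals and dashed lines at -1 and 1. In ein3eil1 the points of extensin and proline-rich genes lie at 1 or above except AT2G27080, while peroxidases lie on both sides of 0 in both genotypes; centring on the median of listed models puts AT5G10130, AT5G19800, AT4G11290 and AT5G12880 just below 0.

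Peroxidases by description were the largest class, with 17 models, 12 in each table. Of the 17, 16 are other than DOX1, which is no class III enzyme. Of the 82 protein-coding loci whose reference product meets the same description rule for peroxidases, 14.6% were listed for ein3eil1 and 14.6% for Col, beside 3.46% and 2.78% of all 27562 protein-coding loci in the same 2 tables. None of the 19 reference loci for ascorbate, glutathione or thioredoxin peroxidases, which detoxify peroxides inside the cell, had a model listed in either table. The 7 models in both tables were all peroxidases, 4 higher with Cd in both genotypes and 3 lower in both, where 53.1% of the 290 models in both tables were higher in both and 37.6% lower in both.

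AT4G36430, named peroxidase 49 in the deposited annotation (chromosome 4, 17204478 to 17205966), had the most reads of the higher ones with Cd. It stood at 107.7 RPKM with Cd and 18.9 RPKM without in ein3eil1, and at 126.5 RPKM with Cd and 25.7 RPKM without in Col. Its ratio was 5.70-fold (interval 5.12 to 6.37) in ein3eil1 and 4.93-fold (4.51 to 5.39) in Col. In both genotypes the Cd library was the high one, and both ein3eil1 libraries were below their Col counterparts.

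AT2G18150 (chromosome 2, 7892133 to 7893653) had 34.8 RPKM with Cd and 13.05 RPKM without in ein3eil1, against 43.8 RPKM with Cd and 11.2 RPKM without in Col. Its ratio was 2.67-fold (2.32 to 3.08) in ein3eil1 and 3.92-fold (3.42 to 4.51) in Col. Of its 50-base windows, 6.42% also occur in transcripts of other loci, mostly AT2G18140, so some reads may have been shared.

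PRXCA, or peroxidase 33, takes part in the burst of reactive oxygen in the apoplast and in root growth. It had 1.74 RPKM with Cd and 0.431 RPKM without in ein3eil1 (40 and 10 reads), and 1.66 RPKM with Cd and 0.191 RPKM without in Col (38 and 5 reads). The ratios of 4.05-fold (1.99 to 9.07) in ein3eil1 and 8.70-fold (3.42 to 28.3) in Col rest on these few reads. Its sister gene PRXCB, with which it shares most of the 6.53% of its windows that are not unique, was listed in neither table.

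AT5G19880 had 5.77 RPKM with Cd and 0.236 RPKM without in ein3eil1, or 121 and 5 reads, a 24.5-fold ratio (10.2 to 76.7). In Col it had 1.43 RPKM with Cd, from 30 reads, and 0 reads without. Taking 3 reads as the most that a count of 0 allows, a lower bound on its ratio was 11.4-fold, with the counting error of the 30 reads left out. It lies 1639 bases from AT5G19890, peroxidase 59, its next listed neighbour among the members on chromosome 5. That neighbour went the other way in Col, at 297 RPKM with Cd and 608 RPKM without, 2.05-fold lower (1.99 to 2.11), and was not listed for ein3eil1. At 608 RPKM, AT5G19890 had the highest level in a Col library among the 17 members listed for Col.

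The 3 peroxidases that were lower with Cd in both genotypes include 2 that lay down lignin in the Casparian strip, the seal in the wall of the root endodermis. PER64, the peroxidase placed at that strip (chromosome 5, 16852630 to 16854224), had 50.9 RPKM with Cd and 118 RPKM without in ein3eil1, and 43.6 RPKM with Cd and 112 RPKM without in Col. It was 2.32-fold lower (2.16 to 2.50) in ein3eil1 and 2.57-fold lower (2.38 to 2.78) in Col. The untreated libraries were the high ones in both genotypes and differed little, with ein3eil1 at 1.05-fold of Col (0.998 to 1.11).

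AT1G44970, peroxidase 9 (chromosome 1, 17002117 to 17003688), acts with other peroxidases at the same strip and, in anthers, in joining extensins. It had 4.12 RPKM with Cd and 24.0 RPKM without in ein3eil1, and 5.15 RPKM with Cd and 25.1 RPKM without in Col. These are ratios of 5.82-fold lower (4.64 to 7.37) in ein3eil1 and 4.88-fold lower (3.98 to 6.03) in Col. AT5G15180, peroxidase 56, had 11.01 RPKM with Cd and 28.8 RPKM without in ein3eil1, and 9.21 RPKM with Cd and 34.0 RPKM without in Col, which was 2.61-fold lower (2.23 to 3.07) in ein3eil1 and 3.69-fold lower (3.14 to 4.36) in Col.

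**Figure D3:**
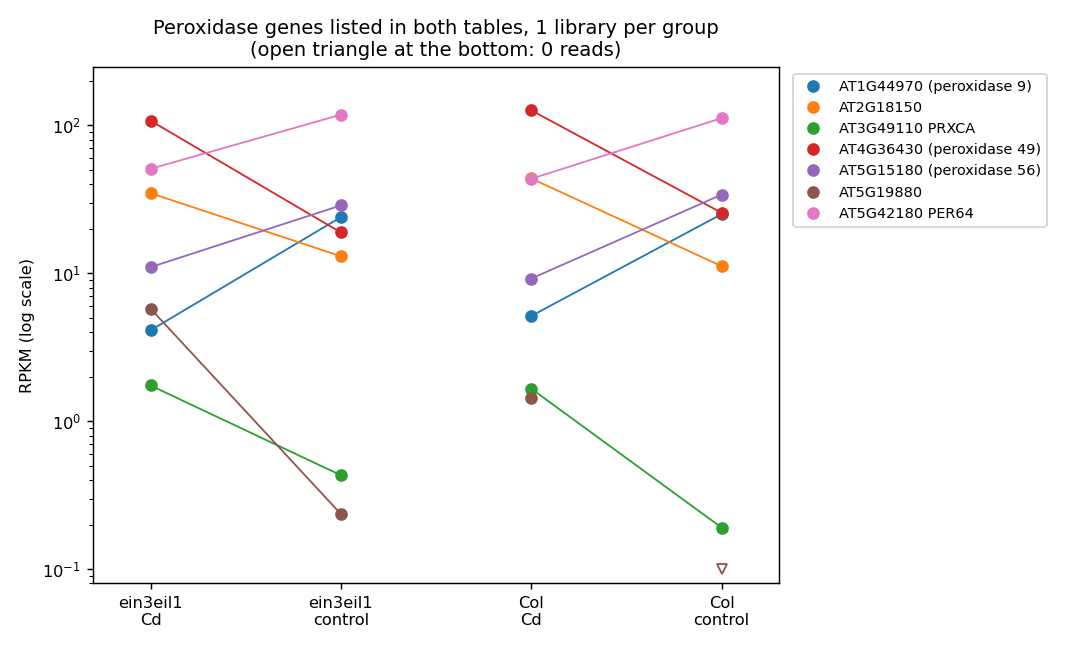
RPKM on a log axis of the 7 peroxidase genes in both tables, in 1 library per group, with lines joining the Cd and control library of a genotype and an open triangle for 0 reads. In each genotype 4 genes are higher with Cd and 3 are lower. For the 6 genes with reads in every library, Cd and control points lie further apart than points of the 2 genotypes under the same treatment. Only models with at least a 2-fold ratio with Cd were listed, with no such rule between genotypes. That order of distances is therefore largely set by the listing.

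The responses of these 7 genes were set against each other as a difference of log2 ratios, ein3eil1 minus Col. Of the 290 models in both tables, 23.1% had an interval above 0 and 16.2% one below 0. Among the 7 peroxidases, 2 had an interval above 0, AT5G15180 at 0.50 (0.17 to 0.82) and AT4G36430 at 0.21 (0.01 to 0.41), and 1 had one below 0, AT2G18150 at -0.55 (-0.83 to -0.27). With each table's ratios centred on its listed median the interval of AT4G36430 held 0 (0.11, -0.10 to 0.31). PER64, peroxidase 9 and PRXCA had intervals that held 0, and for AT5G19880 no difference was computed because of its 0 reads.

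Levels of the same 7 genes were also compared between genotypes. Without Cd, PRXCA was the 1 gene at 2-fold or more, 2.26-fold higher in ein3eil1 with an interval from 0.703 to 8.42 that holds 1, which 10 and 5 reads are too few to tell from no difference. AT5G19880 had no ratio there, with 5 reads in ein3eil1 and 0 in Col. Of all 290 models in both tables, 24.5% were at least 2-fold higher in untreated ein3eil1 and 14.8% lower. With Cd, AT5G19880 was 4.03-fold higher in ein3eil1 (2.68 to 6.22), and the other 6 lay between 0.795-fold and 1.19-fold of Col, where 22.1% of the 290 models were at least 2-fold higher and 15.5% lower. The median log2 ratio of ein3eil1 over Col across the 290 models was 0.32 without and 0.27 with Cd, and the genotype ratios of these genes stand against that shift.

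A further 5 peroxidases were listed for ein3eil1 and not for Col, all with more reads in the Cd library. AT4G11290, peroxidase 39 (chromosome 4, 6869953 to 6871661), another enzyme of the Casparian strip, had 335 RPKM with Cd and 162 RPKM without, a 2.06-fold ratio (1.98 to 2.15) whose sign turned on centring. Before centring it was the 1 listed peroxidase of the strip that was higher in ein3eil1, where PER64 and peroxidase 9 were lower. DOX1 had 204 RPKM with Cd and 80.2 RPKM without, 2.55-fold (2.44 to 2.66). It carries the same family description but encodes an alpha-dioxygenase that oxidises fatty acids, and is no class III enzyme.

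AT2G41480, or PRX25, had 25.9 RPKM with Cd and 11.4 RPKM without, 2.27-fold (1.94 to 2.66). PRX52, which contributes to stem lignin, had 4.43 RPKM with Cd and 1.73 RPKM without, 2.56-fold (1.72 to 3.87). AT5G58390, peroxidase 67, had 18 reads with Cd and 0 without. With 3 reads put for the 0, a lower bound on its ratio was 6.07-fold, with the error of the 18 left out. Its 0.878 RPKM kept it out of the counts.

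The other 5 peroxidases had a row in the Col table alone, 2 of them higher with Cd and 3 lower. AT4G25980, peroxidase 43, had 3.10 RPKM with Cd and 0.467 RPKM without, 6.64-fold (3.36 to 14.6), but 40.1% of its windows lie in transcripts of other loci, mostly the overlapping CIL on the other strand. PA2, peroxidase 53, had 3.84 RPKM with Cd and 1.72 RPKM without, 2.24-fold (1.53 to 3.31). AT4G16270, peroxidase 40, which joins extensins in anthers together with peroxidase 9, had 1.26 RPKM with Cd and 8.70 RPKM without, 6.89-fold lower (4.53 to 10.9). AT2G37130 had 30.05 RPKM with Cd and 64.8 RPKM without, 2.16-fold lower (1.97 to 2.36), and AT5G19890 is given above. Whether the peroxidases listed in 1 table respond differently in the other genotype cannot be told, since their reads in that genotype are not in the tables.

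Extensin and proline-rich genes were listed mostly for ein3eil1. There 12 were listed, 11 higher with Cd and 1 lower, and for Col 5 were listed, of which 1 was higher and 3 lower at 1 RPKM or more. By the same counts 59.3% of all models listed for ein3eil1 were higher and 35.8% lower, and 52.9% and 42.4% of those listed for Col. None of these 17 models was in both tables, where 19.1% of all models in either table were in both. Their reads in the other genotype are not known. Some ratios in ein3eil1 lie close to the 2-fold listing threshold, such as 2.001-fold for AT5G12880 and 2.08-fold for AT5G19800. Whether these genes respond differently in the other genotype therefore cannot be told. By reference product, 5.36% of 56 extensin loci and 5.92% of 152 proline-rich loci were listed for ein3eil1, beside 1.79% and 2.63% of them for Col, and beside the shares of all loci given above.

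Of the 3 extensin-class genes in ein3eil1, AT5G10130 had the highest level among the 24 members listed for ein3eil1. It stood at 713 RPKM with Cd and 327 RPKM without, 2.18-fold (2.11 to 2.26), from 10152 and 4710 reads. EXT12 (chromosome 4, 7783818 to 7785326) had 48.1 RPKM with Cd and 21.1 RPKM without, 2.27-fold (2.05 to 2.52). AT4G08400 (chromosome 4, 5323800 to 5325341) had 11.3 RPKM with Cd and 4.16 RPKM without, 2.73-fold (2.18 to 3.43), with 56.1% of its windows also in transcripts of other loci, mostly the similar AT4G08410, which was not listed. All 3 were higher with Cd, though the sign of AT5G10130 turned on centring.

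PRP1, also named RHS7 for its expression in root hairs (chromosome 1, 20505000 to 20506488), had 67.9 RPKM with Cd and 22.6 RPKM without in ein3eil1, 3.01-fold (2.71 to 3.34). PRP4, another proline-rich wall protein, had 52.8 RPKM with Cd and 22.0 RPKM without, 2.40-fold (2.19 to 2.64), and 12.1% of its windows are shared with the overlapping AT4G38775. AT5G12880, a short proline-rich gene of 73 codons, had 151 RPKM with Cd and 75.5 RPKM without, 2.001-fold (1.81 to 2.22). AT5G19800, whose 96 codons hold 3 of the serine and proline runs, had 56.7 RPKM with Cd and 27.3 RPKM without, 2.08-fold (1.68 to 2.57). All 4 were higher with Cd, but AT5G12880 and AT5G19800 changed sign on centring.

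AT5G45350, of 18.1% proline codons, had 16.2 RPKM with Cd and 6.08 RPKM without in ein3eil1, 2.66-fold (2.07 to 3.43), the value of 1 model of a locus with 7 reference transcripts. AT1G14710 had 4.83 RPKM with Cd and 1.57 RPKM without, 3.07-fold (2.30 to 4.12). The LEA hydroxyproline-rich genes went both ways. AT5G21130 had 3.43 RPKM with Cd and 0.703 RPKM without, 4.89-fold (2.60 to 10.001), and AT4G23930 had 5.98 RPKM with Cd and 2.62 RPKM without, 2.28-fold (1.48 to 3.61). AT2G27080 had 24.6 RPKM with Cd and 50.5 RPKM without, 2.05-fold lower (1.84 to 2.29), the 1 lower member of this group in ein3eil1.

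**Figure D4:**
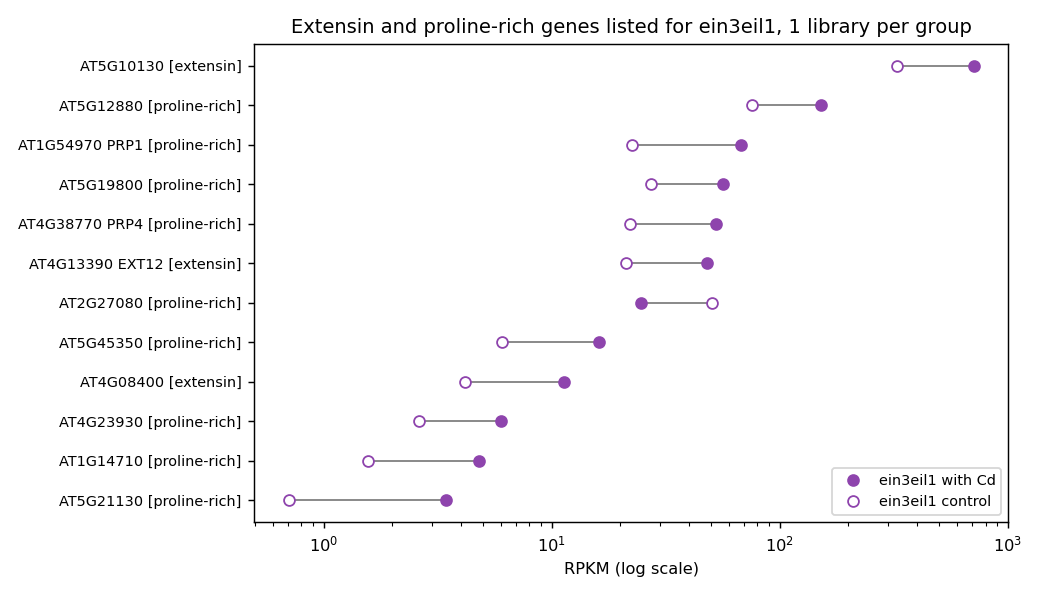
RPKM on a log axis of the 12 extensin and proline-rich genes listed for ein3eil1, filled with Cd and open without, 1 library each. The filled point lies to the right of the open one in 11 genes and to the left in AT2G27080; on centring, AT5G10130, AT5G19800 and AT5G12880 turn sign.

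In Col the widest ratio was that of EPR1, an extensin-like gene known from the endosperm of germinating seeds (chromosome 2, 11713411 to 11715696). It had 0.0522 RPKM with Cd, from 2 reads, and 1.96 RPKM without, from 86 reads. That is 37.6-fold lower (10.09 to 315), a ratio that rests on the 2 reads. AT2G22510 had 3.33 RPKM with Cd and 8.32 RPKM without, 2.49-fold lower (1.73 to 3.65).

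The other 3 Col genes share much of their sequence with neighbouring loci, so their reads may belong in part to those. AT5G51680 had 0.901 RPKM with Cd and 2.47 RPKM without, 2.74-fold lower (1.67 to 4.65), and 90.0% of its windows lie in transcripts of other loci, mostly the overlapping ACS12 on the opposite strand. AT1G15825 had 24 reads with Cd and 3 without, or 3.76 and 0.410 RPKM, a 9.15-fold ratio (2.78 to 47.5), with 71.5% of its windows mostly in AT1G15830. AT4G23610, an LEA hydroxyproline-rich gene, had 13 reads with Cd and 0 without, at 0.963 RPKM, with 26.2% shared windows. With 3 reads put for the 0, a lower bound on its ratio was 4.96-fold, with the error of the 13 left out. Neither ACS12 nor AT1G15830 was listed in either table, and without a stated strand setting their reads cannot be told from those of these members.

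The 250 bases upstream of each gene's annotated start were searched on both strands for short motifs. The core of the root hair element, through which root hair genes are switched on, was taken in a loose form as TG, then 4 or 5 bases of any kind, then CACG. Because no base between TG and CACG was fixed, a match need not fit the full element. Both spacings end in the same CACG, which is also part of the G-box below. The core was found upstream of 7 of the 34 members (20.6%), of 5 of the 17 extensin and proline-rich members (29.4%), and of 9.02% of 27443 regions of the reference. These 5 were all among the 11 genes of that class that were higher in ein3eil1, a group picked by its ratios in these data. The 6 members of the class outside those 11 held none. They are the 5 listed for Col alone and AT2G27080, too few regions to compare at a share of 9.02%, and a link of the core to the response was not tested. For AT2G27080 the searched region ends at base 11563932 of chromosome 2, well before the deposited model, which starts at 11566288. The 5 that held the core are PRP1, EXT12, AT4G08400, AT1G14710 and AT5G21130. Among the 17 peroxidases 2 held it, AT5G15180 and AT5G19880. The 5-base spacing was upstream of 4 of these 11 genes and 5.29% of all regions, and the 4-base spacing of 1 of the 11 and 4.06%. Because the 11 were picked by their ratios and the spacing is 1 of 2, these shares are given without a test. The matches of the 4 genes are shown with 6 bases on either side. They are read on the strand where the core runs from TG to CACG, with the core in capitals.
EXT12, chr4:7783705-7783727 of TAIR10.1, strand of the gene: tgtaagTGCCACACACGaaccca
AT4G08400, chr4:5325444-5325466 of TAIR10.1, strand of the gene: tggaagTGCCACACACGaaccca
PRP1, chr1:20504768-20504790 of TAIR10.1, opposite strand: taatagTGTTATGCACGattaaa
AT1G14710, chr1:5065487-5065509 of TAIR10.1, opposite strand: aatttaTGATTATCACGtcgctt
The core began 80 bases upstream of EXT12 and 86 bases upstream of AT4G08400. The 2 upstream regions share an identical run of 20 bases around it, so these 2 matches do not count as independent. The whole 250 bases upstream of EXT12 and PRP1, the 2 carriers of the core with the most reads in the ein3eil1 Cd library, are given on the strand of the gene with the core in capitals, which in PRP1 is read in reverse.
EXT12, chr4:7783541-7783790 of TAIR10.1, plus strand: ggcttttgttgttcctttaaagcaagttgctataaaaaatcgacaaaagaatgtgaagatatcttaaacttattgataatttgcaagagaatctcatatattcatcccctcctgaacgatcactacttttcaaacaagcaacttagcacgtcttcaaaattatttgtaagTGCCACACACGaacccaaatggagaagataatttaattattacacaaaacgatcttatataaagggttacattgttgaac
PRP1, chr1:20504651-20504900 of TAIR10.1, plus strand: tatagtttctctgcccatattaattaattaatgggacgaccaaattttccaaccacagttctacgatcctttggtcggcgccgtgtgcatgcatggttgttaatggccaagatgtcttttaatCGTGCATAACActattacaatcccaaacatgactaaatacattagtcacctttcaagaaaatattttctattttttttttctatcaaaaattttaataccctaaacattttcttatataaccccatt
A match of this kind is a description of the letters and not a site shown to be bound.

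Of the motifs recorded for EIN3, ATGTAC was present upstream of 6 of the 34 members and of 9.52% of all regions. The 6 were PRXCA, AT4G11290, AT4G16270, AT4G23930, AT5G19880 and AT5G45350. ATGNATCT was present upstream of AT5G19890 alone among the members and of 4.42% of all regions. The G-box CACGTG was in 6.49% of all regions and in none of the members' windows.

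Genes that work with these proteins were listed in small numbers, where 3.46% of all protein-coding loci were listed for ein3eil1 and 2.78% for Col. Of all listed models 59.3% were higher and 35.8% lower in ein3eil1, and 52.9% higher and 42.4% lower in Col. Of 18 monolignol synthesis genes, which make the lignin precursors, 3 were higher in ein3eil1 and none lower. CCR1, a reductase of that pathway, had 11.6 RPKM with Cd and 2.81 RPKM without (4.12-fold, 3.14 to 5.47), a value of 1 model at a locus with 7 reference transcripts. F5H1, a hydroxylase that leads to syringyl lignin, had 134 RPKM with Cd and 52.7 RPKM without in ein3eil1, and 106 RPKM with Cd and 42.7 RPKM without in Col. In Col 1 of the 18 was higher, F5H1, and 1 lower, PAL4, at 5.26 RPKM with Cd and 11.98 RPKM without.

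Laccases oxidise lignin precursors with oxygen in place of peroxide. Of 17, LAC12 was higher and LAC3 and LAC10 were lower in ein3eil1, and LAC2, LAC3 and LAC10 were lower in Col. LAC3 had 25.3 RPKM with Cd and 69.2 RPKM without in ein3eil1, and 25.5 RPKM with Cd and 64.6 RPKM without in Col. LAC12 had 9.53 RPKM with Cd and 1.94 RPKM without in ein3eil1.

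In a list of 13 Casparian strip genes, which includes peroxidases 9, 39 and 64, 4 were lower and 1 higher in ein3eil1, and 7 were lower in Col. Of all listed models 35.8% were lower and 59.3% higher in ein3eil1, and 42.4% were lower in Col. CASP2, a scaffold protein of the strip, had 54.05 RPKM with Cd and 116 RPKM without in ein3eil1, and 37.4 RPKM with Cd and 115 RPKM without in Col. None of 10 NADPH oxidases, which supply the reactive oxygen that peroxidases use, was listed in either table. The same held for 12 enzymes that hydroxylate extensins or add their sugars, and for 12 genes of the leucine-rich repeat extensins and the FERONIA receptor. With only 3.46% of all protein-coding loci listed for ein3eil1 and 2.78% for Col, the absence of such short lists says little. The xylem protease XCP2 was 2.25-fold lower in ein3eil1, the 1 listed of 6 xylem markers, and none was listed for Col. The RNA came from root tissue of several cell types. For genes that were lower, such as those of the Casparian strip, fewer cells of a type and less RNA per cell cannot be told apart. For genes that were higher, such as PRP1, more cells and more RNA per cell cannot be told apart either.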

How the data were processed

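RNA from 4 groups of seedling roots, 1 library each, was isolated with Trizol and reverse transcribed from random primers, per the labels' protocols, which name an Illumina HiSeq or, when necessary, another sequencer. The sources used here do not give the aligner, counting tool, strand setting or genome build. Per the file headers, the authors deposited read counts, RPKM, a log2 ratio, a p-value and an FDR for each listed model. Tested on the files, RPKM is the count over model length and 1 library total, with 0.001 entered for 0 reads, and the largest FDR is 0.000967 for Col and 0.000987 for ein3eil1.

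Ratios were taken from the deposited RPKM without a pseudocount. Counts of members required a ratio of 2 or more in size and 1 RPKM in at least 1 library. A count model needs replicates, so none was fitted. Ratios have 95% exact Clopper-Pearson intervals from the reads, and differences of log2 ratios have 95% normal intervals. Without molecular identifiers reads can be copies of 1 molecule, and intervals and the floor of 3 reads cover counting error only. The ratio intervals were tested on simulated counts that held counting error only. Alternatives were another fold threshold, minimum, pseudocount, centring, FDR and choice of loci.

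The members, the 10 companion lists with 110 entries and the motifs were chosen with earlier results of these data known. Members with 1 RPKM or more were named, and up to 3 genes of each companion list. A gene of the Casparian strip list is not reported here. Sequences, codons and transcript numbers come from NCBI's RefSeq annotation of TAIR10.1, and gene coordinates from the deposited tables, of unnamed build. All 34 members matched by locus identifier, 30 within 200 bases of the annotated gene. Shared windows are 50-base stretches of a reference transcript that also occur, on either strand, in a transcript of another locus. Values were computed in Python 3.11.15 with pandas 2.3.3 and numpy 2.4.6, intervals with SciPy 1.17.1, and plots with matplotlib 3.10.9.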

Additional observations from a re-analysis of the deposited data

How the results depend on the processing

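No paired analysis was possible because each group had 1 library. Counting loci in place of models could not change the counts, because each member was the only listed model of its locus. Dropping the minimum could add no more than the 1 member below 1 RPKM in each genotype. With that setting, or an FDR of 1e-05 or less, the counts of higher and lower members stayed within 1.5 times. At a 4-fold threshold 4 members were higher and 1 lower in ein3eil1, and 3 were lower in Col. At 5 RPKM, 2 members were higher in Col. Among the members in both tables, 4 were higher in ein3eil1, and 4 were higher and 3 lower in Col, by construction. Centring on the median of listed models left 3 higher in ein3eil1 and 1 difference of responses above 0, and it turned the log2 ratios of AT5G10130 (-0.04), AT5G19800 (-0.11), AT4G11290 (-0.12) and AT5G12880 (-0.16) in ein3eil1. Untreated levels had 0 genes at 2-fold higher in ein3eil1 with a pseudocount of 1 RPKM and with centring on the 290 models. An alternative added after seeing the data kept the members with under 5% shared windows, and 3 were then higher in Col. Another, with 3 reads in place of 0, gave AT5G19880 a difference of 1.1 (-1.05 to 3.24). With 1 library per group, spread between plants is not measured, and the widest counting intervals belong to genes with few reads, such as EPR1 and PRXCA.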

Other observations

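Families of wall genes outside the description rule were looked up after their values had been seen, so their counts are given without a test. Dirigent-like genes, whose known members guide the coupling of phenolic radicals that peroxidases and laccases make, were lower with Cd wherever listed: 4 of 4 in ein3eil1, where 35.8% of all listed models were lower, and 5 of 5 in Col, where 42.4% were. AT2G21100 had 6.89 RPKM with Cd and 23.3 RPKM without in ein3eil1, and 3.17 RPKM with Cd and 18.6 RPKM without in Col. AT2G39430 had 44.1 RPKM with Cd and 109 RPKM without in ein3eil1, and 30.1 RPKM with Cd and 99.4 RPKM without in Col. AT4G23690 had the highest level, at 209 RPKM with Cd and 443 RPKM without in ein3eil1, and was not listed for Col.

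Pectin lyase-like genes, grouped by description and not by what their enzymes do to pectin, were higher in 4 of 4 listed in ein3eil1. Of all models listed for ein3eil1, 59.3% were higher. In Col 3 of 7 were higher, where 52.9% of all listed models were. Of the pectin acetylesterases, which remove acetyl groups from pectin, 1 was higher and 1 lower in ein3eil1, and 2 of 2 were lower in Col. AT1G11920 had 4.12 RPKM with Cd and 0.560 RPKM without in ein3eil1, and 11.1 RPKM with Cd and 2.71 RPKM without in Col. Arabinogalactan proteins, a further family of wall glycoproteins, were 2 higher and 2 lower in ein3eil1, where AGP14 had 608 RPKM with Cd and 302 RPKM without and FLA13 had 19.0 RPKM with Cd and 70.6 RPKM without. The ratio of AGP14, 2.01-fold (1.92 to 2.11), is close to the listing threshold, and AGP21 was the 1 listed for Col, 2.15-fold lower (1.89 to 2.44).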
